A study of Homo sapiens with 18 samples.

Results

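The translation factor genes described here are the protein-coding genes of GENCODE on hg38 whose names begin with EIF1 to EIF6 or with EEF1 or EEF2. The rule found 71 of 20046 protein-coding genes, and 70 of the 19970 on chromosomes 1 to 22 and X were covered by the data; EIF1AY, on Y, was not. They code for the factors that start and carry out protein synthesis on cytosolic ribosomes, for the kinases and methyltransferases that modify those factors, and include 2 readthrough genes that join a member to its neighbour. R-loops at these genes were read from DRIP–seq, in which the S9.6 antibody pulls down RNA/DNA hybrids from fragmented DNA, and binding of the DNA cytosine deaminase APOBEC3B (A3B) from anti-GFP ChIP–seq of A3B-eGFP. The DRIP–seq libraries came from A3B KO MCF10A cells given DMSO or phorbol 12-myristate 13-acetate (PMA, 25 ng/ml) for 2 h or 6 h, and from WT MCF10A cells given the same 3 treatments. The ChIP–seq libraries came from MCF10A-TREx-A3B-eGFP cells with doxycycline (1 µg/ml for 24 h) and PMA for 2 h, with doxycycline and DMSO, and without doxycycline and with DMSO.

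MCF10A is an immortalized, nontumorigenic human breast epithelial line, and PMA activates protein kinase C and through it the endogenous A3B gene. The A3B KO line is 1 single-cell clone made with a guide RNA that cuts in both A3B and its neighbour in the APOBEC3 cluster, so that a fusion of these genes remains. No uninduced A3B-eGFP sample with PMA was included, and the DRIP–seq cells do not carry A3B-eGFP. Each condition was 1 library of pooled immunoprecipitations, so differences between libraries have no replicate check, and counts and medians are set beside those of all protein-coding genes without a test. Each list holds windows of 500 bp around the peak summits that MACS2 called against the matching input, with a fold enrichment, the ratio of the immunoprecipitate's pileup at the summit to the background that MACS2 expected there from the input.

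The 6 DRIP–seq lists held 98432, 120428 and 169126 windows in A3B KO cells (DMSO, PMA 2 h, PMA 6 h) and 91894, 111771 and 165877 in WT cells, and the 3 ChIP–seq lists held 4040 to 7122. The number of reads is unknown, and the summits had a median pileup of 20 to 30 fragments in the DRIP–seq lists. APOBEC3B itself had 0 windows in each A3B KO list and 0, 1 and 2 in the WT lists. Of 10 genes of basal breast epithelium, 8 or 9 had a promoter window in each DRIP–seq list, against 0 or 1 of 5 luminal, 0 or 1 of 4 blood and 0 of 4 fibroblast genes.

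Translation of most mRNAs begins when eIF4F, made of the cap-binding protein eIF4E, the helicase eIF4A and the scaffold eIF4G, brings an mRNA to the small ribosomal subunit. That subunit carries eIF3, the initiator tRNA bound by eIF2, and eIF1 and eIF1A, which hold it open while it searches for the start codon, and eIF5 and eIF5B end the search and join the large subunit. The elongation factors eEF1A, recharged by the eEF1B complex, and eEF2 then deliver aminoacyl-tRNA and move the ribosome. Many mRNAs of this machinery begin with a C and a run of pyrimidines, the 5′ terminal oligopyrimidine (TOP) tract through which mTOR controls their translation, and several of the genes carry small nucleolar RNA (snoRNA) genes in their introns.

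The TOP tract is a property of the DNA at these promoters, so the promoter sequences of members that carry it are shown first. Of the 70 covered genes, 56 matched a RefSeq promoter by symbol, with 73 annotated starts among them. A C at the annotated start followed by at least 4 bases that are each C or T, read on the strand of the gene, stood at 13 of these 73 starts (17.8%), against 989 of 21571 starts of all protein-coding genes (4.59%) and 46 of 77 starts of cytosolic ribosomal protein genes (59.7%). The 13 members were EEF1A1, EEF1B2, EEF2, EIF2A, EIF2D, EIF2S3, EIF2S3B, EIF3D, EIF3F, EIF3K, EIF3M, EIF4A2 and EIF4B. The 8 printed here are examples from the elongation factor and initiation factor genes, with EIF3F shown because its annotated start lies far inside the GENCODE gene. Each runs from 120 bases before the annotated start to 30 bases from it on, on GRCh38.p14 as in RefSeq, with the tract in capitals.
EEF1A1: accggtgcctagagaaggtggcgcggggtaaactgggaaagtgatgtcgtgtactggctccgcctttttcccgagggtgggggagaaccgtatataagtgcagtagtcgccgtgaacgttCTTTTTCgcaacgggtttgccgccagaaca
EEF2: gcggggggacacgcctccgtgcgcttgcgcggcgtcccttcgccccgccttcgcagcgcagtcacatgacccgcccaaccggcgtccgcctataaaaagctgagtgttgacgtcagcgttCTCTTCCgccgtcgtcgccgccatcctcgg
EEF1B2: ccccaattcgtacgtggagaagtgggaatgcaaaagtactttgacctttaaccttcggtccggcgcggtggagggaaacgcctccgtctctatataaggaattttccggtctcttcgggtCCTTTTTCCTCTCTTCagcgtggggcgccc
EIF4A2: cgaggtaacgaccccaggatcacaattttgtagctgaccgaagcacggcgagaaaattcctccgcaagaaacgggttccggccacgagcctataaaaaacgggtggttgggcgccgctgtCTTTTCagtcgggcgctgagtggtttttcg
EIF4B: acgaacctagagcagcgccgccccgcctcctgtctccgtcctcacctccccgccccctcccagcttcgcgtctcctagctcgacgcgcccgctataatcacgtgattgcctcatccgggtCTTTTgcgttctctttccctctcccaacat
EIF2A: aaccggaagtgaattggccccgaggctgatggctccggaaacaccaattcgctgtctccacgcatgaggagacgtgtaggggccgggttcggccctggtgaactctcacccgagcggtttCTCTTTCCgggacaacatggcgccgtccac
EIF3M: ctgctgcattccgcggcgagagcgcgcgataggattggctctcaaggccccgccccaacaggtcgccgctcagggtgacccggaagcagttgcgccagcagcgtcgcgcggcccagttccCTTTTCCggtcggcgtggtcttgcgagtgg
EIF3F: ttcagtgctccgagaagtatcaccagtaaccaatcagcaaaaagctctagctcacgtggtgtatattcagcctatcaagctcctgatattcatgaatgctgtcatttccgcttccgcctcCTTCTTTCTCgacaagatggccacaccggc
The coordinates and strands of these stretches are chr6:73521003-73521152 on the minus strand for EEF1A1, chr19:3985434-3985583 (minus) for EEF2, chr2:206159775-206159924 (plus) for EEF1B2, chr3:186783457-186783606 (plus) for EIF4A2, chr12:53006336-53006485 (plus) for EIF4B, chr3:150546667-150546816 (plus) for EIF2A, chr11:32583711-32583860 (plus) for EIF3M and chr11:7987217-7987366 (plus) for EIF3F. For EEF1A1 the RefSeq start lay 4555 bp inside the GENCODE gene, whose most 5′ transcript begins further upstream, and for EIF3F it lay 17086 bp inside. Both genes had no window within 2 kb of the most 5′ start, although windows stood elsewhere in them.

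The second set of sequences is the middle of the strongest DRIP–seq windows themselves. The highest promoter windows of EIF1, EIF4A2, EEF1B2, EIF4A1 and EEF2 in A3B KO cells with DMSO were all centred in the first intron of the gene's representative (MANE) transcript. For 4 of them the central 200 bases lay wholly in that intron and touched no untranslated exon of any annotated transcript. These are printed on the strand of the gene, from hg38, with runs of at least 3 G in capitals, since a G-rich strand that pairs poorly once displaced is a textbook feature of R-loop sites.
EIF1: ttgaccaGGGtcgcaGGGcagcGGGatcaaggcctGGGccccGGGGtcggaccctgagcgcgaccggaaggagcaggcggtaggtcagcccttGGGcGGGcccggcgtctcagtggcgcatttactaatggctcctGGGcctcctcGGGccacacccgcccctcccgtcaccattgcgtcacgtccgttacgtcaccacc
EEF1B2: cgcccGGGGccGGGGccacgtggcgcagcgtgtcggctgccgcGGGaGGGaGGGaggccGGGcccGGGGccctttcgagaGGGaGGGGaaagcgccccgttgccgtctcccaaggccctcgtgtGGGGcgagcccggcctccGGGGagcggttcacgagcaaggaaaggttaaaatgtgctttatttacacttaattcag
EIF4A1: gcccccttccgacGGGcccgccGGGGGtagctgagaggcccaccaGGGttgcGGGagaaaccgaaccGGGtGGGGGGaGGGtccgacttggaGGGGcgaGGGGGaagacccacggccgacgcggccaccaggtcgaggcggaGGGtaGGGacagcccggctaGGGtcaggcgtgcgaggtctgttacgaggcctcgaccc
EEF2: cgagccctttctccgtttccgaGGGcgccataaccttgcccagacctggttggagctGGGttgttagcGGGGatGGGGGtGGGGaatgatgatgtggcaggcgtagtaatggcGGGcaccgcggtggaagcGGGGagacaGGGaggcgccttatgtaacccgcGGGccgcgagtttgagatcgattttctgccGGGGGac
The stretches are chr17:41689187-41689386 (plus strand) for EIF1, chr2:206160101-206160300 (plus) for EEF1B2, chr17:7572908-7573107 (plus) for EIF4A1 and chr19:3985000-3985199 (minus) for EEF2. They held 9, 11, 12 and 10 runs of G in that order, with a GC content of 69.5, 68.5, 73.0 and 63.0%. GC skew, the excess of G over C divided by their sum, was 0.29 for EEF2, 0.21 for EIF4A1 and 0.17 for EEF1B2 but −0.04 for EIF1, the strongest of the promoter windows. In the central 200 bases G therefore exceeded C on the coding strand in the first 3 of these and not in the last. Over its whole 500 bp window in A3B KO cells with DMSO, EIF1 had a skew of 0.08 and 28 runs of G.

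DRIP–seq windows were frequent at the translation factor genes. A window with its midpoint in the gene or within 2 kb of its start was found at 64, 63 and 65 of the 70 genes in A3B KO cells (DMSO, PMA 2 h, PMA 6 h), where 71.9, 73.5 and 77.2% of all protein-coding genes had one. In WT cells 63, 60 and 64 members had one, against 70.1, 70.8 and 77.6% of all genes. A promoter window, here one with its midpoint within 2 kb of the most 5′ start, stood at 49, 43 and 51 members in A3B KO cells (70.0, 61.4 and 72.9%), where 36, 36.5 and 38.3% of all genes had one. The counts in WT cells were 51, 42 and 48 members (72.9, 60.0 and 68.6%), against 35, 31.9 and 38.5% of all genes. In both lines the PMA 2 h list had the fewest members with a promoter window.

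Presence of a window was also stable over the lists for most members. In all 6 lists 35 members had a promoter window (18.5% of all genes), 21 had one in 1 to 5 lists and 14 in none. Any window was found in all 6 lists at 58 members (57.4% of all genes), in 1 to 5 lists at 7, and in none at 5. The 5 were EIF1B, EIF4E1B, EIF5AL1, EIF2S3B and EEF1A2, of which EEF1A2 is the eEF1A form of muscle and neurons and EIF4E1B a form of eIF4E known from oocytes. Another 6 genes had windows in every list but none within 2 kb of the most 5′ start: EEF1A1, EIF3E, EIF3F, EIF2S1, EIF2AK3 and EIF2AK4. Windows at the members were dense for the length they cover, with 160.3, 135.8 and 198.5 per megabase in A3B KO cells and 143.3, 130.0 and 183.1 in WT cells, against 48.0, 56.3 and 75.8 and 45.7, 50.7 and 72.4 over all protein-coding genes. A window in overlapping genes was counted for each of them, among members and all genes alike. In A3B KO cells with DMSO, 34 of the 471 windows so counted lay at EIF3C and 20 at its near-identical copy EIF3CL. When overlapping windows of the 6 lists were merged, 153 of 723 regions at the members (21.2%) were present in all 6 lists, against 12.1% over all genes, and 231 (32.0%) in 1 list, against 37.6%.

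The members' promoter windows were also high in the lists. The median fold enrichment of the highest promoter window was 7.10, 6.04 and 6.23 in A3B KO cells, against 4.98, 5.42 and 5.04 over all genes with one. In WT cells it was 6.70, 5.14 and 6.56, against 4.98, 5.00 and 5.50. Because fold values depend on depth, genes were ranked within each list by this value, with rank 1 the highest. The median rank of the members was 1605 of 7198, 3018 of 7280 and 2443 of 7641 genes in A3B KO cells and 1796 of 6994, 2988 of 6377 and 2745 of 7698 in WT cells. The members thus stood highest in the DMSO lists of both lines and lowest in the PMA 2 h lists. Among the upper 10% of ranked genes were 13, 7 and 10 members in A3B KO cells and 13, 6 and 7 in WT cells.

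EIF1, whose product keeps the scanning ribosome open until it meets a start codon, had the highest promoter window of all members in every list. Its fold enrichment was 63.9, 80.0 and 41.6 in A3B KO cells (DMSO, PMA 2 h, PMA 6 h) and 44.5, 52.9 and 42.8 in WT cells, with ranks of 8, 7 and 17 and of 24, 11 and 15 among all genes. All 6 windows were centred 383 to 414 bp downstream of the start, so the position did not move with the treatment. EIF5, which triggers GTP hydrolysis on eIF2 at the start codon, had folds of 6.73, 9.11 and 4.48 in A3B KO cells and 7.24, 6.85 and 3.98 in WT cells. EIF1AD, an EIF1A-domain gene, reached at most 4.20, and EIF1AX, which codes for eIF1A, had 0 to 3 windows in a list and none near the start.

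Among the genes of eIF4F, its homologues and its helicase cofactors, EIF4A2 and EIF4A1, which code for the helicase, led. EIF4A2 had folds of 54.0, 36.3 and 35.5 in A3B KO cells and 43.4, 40.1 and 30.1 in WT cells, with ranks from 16 to 52. EIF4A1 had folds of 27.1, 18.2 and 14.1 in A3B KO cells and 27.4, 22.02 and 31.8 in WT cells. Its window, 176 to 216 bp from the start, lay in every list in the first intron stretch printed above. EIF4A3, the helicase of the exon junction complex, had at most 8.26. EIF4G2, a shortened eIF4G that starts translation without binding eIF4E, had 8.89, 14.9 and 12.9 in A3B KO cells and 16.2, 8.30 and 9.87 in WT cells. EIF4E itself, which binds the cap, had 7.10, 3.29 and 7.35 in A3B KO cells, and in WT cells 7.06 with DMSO, no promoter window at PMA 2 h and 8.47 at PMA 6 h. EIF4E2, a cap-binding homologue that can repress translation, had 12.1, 9.60 and 12.1 in A3B KO cells and 12.02, 8.45 and 7.59 in WT cells, in a window also within 2 kb of the start of TIGD1. The helicase cofactors EIF4B and EIF4H had folds of 4.40 to 10.6 and of 2.88 to 8.02 over the 6 lists. EIF4G3, another full-length scaffold, had 17 to 36 windows along its long gene but a promoter window in 2 lists only, both of A3B KO cells.

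Of the elongation factor genes, EEF1A1 had the highest window anywhere in a member in both DMSO lists and in WT cells at PMA 6 h, and the one next to EIF1 in the other 3 lists. Its top window had a fold of 82.3, 52.8 and 38.1 in A3B KO cells and 54.3, 46.2 and 44.4 in WT cells, and was the gene's place 5, 30 and 43 and place 16, 22 and 23 when all genes were ranked by their highest window anywhere. It was centred at −167 to −148 bp from the nearest annotated start, where negative is upstream. That start is not the RefSeq start whose promoter is printed above, which the window followed by 651 to 670 bp over the 6 lists. In A3B KO cells with DMSO this window was chr6:73520117-73520617 on hg38, and in WT cells with DMSO chr6:73520113-73520613. EEF1B2, a nucleotide exchange subunit of eEF1B, had promoter folds of 27.8, 18.2 and 16.5 in A3B KO cells and 25.3, 16.04 and 19.1 in WT cells, and the window lies within 2 kb of the start of NDUFS1 as well, a gene that begins close to it. EEF2, the translocase, had 22.8, 17.7 and 17.6 in A3B KO cells and 24.0, 16.3 and 17.0 in WT cells. The other eEF1B subunit genes had lower folds than EEF1B2 in each list. EEF1G had 9.63, 5.91 and 5.65 in A3B KO cells and 11.8, 3.69 and 8.82 in WT cells. EEF1D had 6.79, 3.17 and 4.45 in A3B KO cells and 7.80, 2.65 and 5.12 in WT cells. EEF1E1, named for the elongation complex but known as a scaffold of the multi-synthetase complex, had 6.32, 6.04 and 5.78 in A3B KO cells and 5.50, 3.64 and 6.88 in WT cells. EEF1AKMT4, a methyltransferase of eEF1A, had 6.76, 5.44 and 8.84 in A3B KO cells and 10.6, 6.16 and 8.81 in WT cells. The sequences of EEF1A1 are copied in 48 annotated pseudogenes, of which 0 to 4 had a window in a DRIP–seq list. The part of reads that map to more than 1 copy was not tested.

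Of the eIF3 genes, which code for the largest initiation factor, EIF3H had folds of 13.2, 6.08 and 8.88 in A3B KO cells and 11.3, 4.65 and 8.37 in WT cells, in a window shared with the start of UTP23. EIF3J had 12.3, 7.28 and 7.05 in A3B KO cells and 9.68, 5.17 and 6.23 in WT cells. The core subunit gene EIF3A had 8.33, 6.34 and 6.66 in A3B KO cells and 8.79, 5.05 and 6.53 in WT cells. EIF3I had 4.16 to 4.68 in the 3 lists of A3B KO cells and 4.05 to 6.48 in those of WT cells. Both EIF3H and EIF3J thus had their highest fold in the DMSO list of each line. EIF3C carried the most windows of any member, 34, 32 and 37 in A3B KO cells and 33, 34 and 43 in WT cells, and its near-identical copy EIF3CL on chromosome 16 carried 20, 21 and 22 and 19, 20 and 24. Their values are uncertain, since reads cannot always be placed on one copy. The genes with the next most windows were EIF4G3, with 24, 25 and 30 in A3B KO cells and 17, 19 and 36 in WT cells, and EIF2B3, with 14, 18 and 25 and 15, 14 and 25.

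The genes around eIF2, its exchange factor eIF2B and its kinases ranged from folds above 11 to no promoter window. EIF2A, which codes for an alternative initiator tRNA carrier and not for a subunit of eIF2, had folds of 11.9, 7.12 and 7.72 in A3B KO cells and 11.1, 6.36 and 4.36 in WT cells. EIF2S2 and EIF2S3, for the beta and gamma subunits, had folds of 4.05 to 8.45 and of 4.49 to 6.31 over the 6 lists. EIF2D, for a factor that can deliver tRNA without GTP, had 6.96, 8.79 and 7.68 in A3B KO cells and 6.76, 8.39 and 8.93 in WT cells. The eIF2B subunit genes EIF2B2 and EIF2B5 stayed at or below 4.42, and EIF2B3 reached 8.23. EIF2B1 had 5.55 with DMSO, no promoter window at PMA 2 h and 4.63 at PMA 6 h in A3B KO cells, and 4.26, 4.79 and 6.49 in WT cells. EIF2B4 had 5.68, 3.28 and 4.37 in A3B KO cells and 6.01, 3.35 and 4.80 in WT cells. EIF5A, for the factor that keeps ribosomes moving through stalls, had 7.64, 5.05 and 6.03 in A3B KO cells and 5.00, 5.59 and 6.60 in WT cells. None of the 4 genes for kinases that phosphorylate eIF2 alpha and slow translation under stress had a promoter window in every list: EIF2AK2, for the double-stranded RNA sensor PKR, had one in 5, EIF2AK1 in 1, and EIF2AK3 and EIF2AK4 in none. The eIF4E inhibitor gene EIF4EBP1 had promoter folds of 2.36 to 3.67 in 3 lists.

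Members that host snoRNA genes stood above the others in every DRIP–seq list. The 9 were EEF1B2, EEF2, EIF1AX, EIF3A, EIF4A1, EIF4A2, EIF4G1, EIF4G2 and EIF5. Of those with a promoter window, 7 to 8 in a list, the median rank was 113, 251 and 245 in A3B KO cells and 144, 483 and 458.5 in WT cells. The other members had medians of 1843.5, 3366 and 2655 in A3B KO cells and 2036, 3362.5 and 2939.5 in WT cells. The groups overlap, since EIF1, the member with the highest promoter window, has no annotated snoRNA gene and EIF5 and EIF4G1 stood low in some lists. No RNA levels were read here.

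For a larger share of the members than of all genes, the highest promoter window was centred in the first intron. Its midpoint was there, on the MANE transcript, for 22 of 49, 18 of 43 and 22 of 51 members in A3B KO cells (44.9, 41.9 and 43.1%), against 34.0, 34.3 and 32.1% of all genes with a promoter window. In WT cells it was there for 25 of 51, 20 of 42 and 19 of 48 members (49.0, 47.6 and 39.6%), against 34.2, 32.7 and 29.9%. Upstream of the transcript lay 26.5, 41.9 and 31.4% of the members' windows in A3B KO cells, against 44.1, 44.5 and 48.6% of all genes' windows, and 29.4, 33.3 and 35.4% in WT cells, against 43.5, 47.5 and 50.6%, so that in A3B KO cells at PMA 2 h the shares were close. Median GC content of the members' windows was 57.6, 57.6 and 58.4% in A3B KO cells and 58.6, 54.0 and 60.1% in WT cells, against 56.2, 55.0 and 52.0% and 56.2, 53.8 and 52.6% over all genes. GC content thus differed from that of all genes by less in the DMSO and PMA 2 h lists than in the PMA 6 h lists. Median GC skew was 0.08, 0.05 and 0.08 in A3B KO cells and 0.10, 0.08 and 0.07 in WT cells, against 0.06, 0.05 and 0.04 over all genes in each line. A skew above 0 was found in 67.35, 60.47 and 70.59% of the members' windows in A3B KO cells, against 63.35, 62.88 and 60.93%. In WT cells the shares were 72.55, 57.14 and 60.42%, against 63.57, 61.69 and 59.89%. At PMA 2 h the members' share was thus below that of all genes in both lines. The members' windows held a median of 28, 28 and 26 CpG in A3B KO cells and 28, 21.5 and 31 in WT cells, against 20, 19 and 15 and 20, 17 and 16 over all genes.

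The question for each treatment is whether these genes moved up or down relative to other promoters after PMA. For every protein-coding gene with a promoter window in both lists compared, the log2 rank ratio is the log2 of its rank with DMSO over its rank with PMA, so that a value below 0 means a lower place after PMA. A gene is said to have risen or fallen when the ratio was at least 1 or at most −1, a 2-fold change of rank, and this is a rule of size and not a test. The medians over all genes lay between −0.01 and 0.01.

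At PMA 2 h, many translation factor promoters stood lower than with DMSO in each line. In A3B KO cells, 18 of 38 ranked members fell and 1 rose, with a median of −0.88, where 17% of all genes fell and 16.6% rose. In WT cells, 14 of 41 fell and 3 rose, with a median of −0.69, where 17.7% of all genes fell and 17.2% rose. At PMA 6 h, 14 of 47 fell and 7 rose in A3B KO cells (median −0.24), where 15.2% of all genes fell and 14.6% rose. In WT cells, 15 of 46 fell and 4 rose at PMA 6 h (median −0.55), against 17.3 and 17% of all genes. The downward balance was therefore present in all 4 comparisons, and smallest in A3B KO cells at 6 h. The 2 h and 6 h comparisons of 1 line share its DMSO library and are not independent of each other. Genes placed high in the lists moved more often on this scale, in both directions, and members were often placed high. In the upper 25% of genes by mean log rank over the lists compared, 10 of 18 members fell at 2 h in A3B KO cells (29.6% of all genes there) and 7 of 17 in WT cells (32.4%). At 6 h the counts in that stratum were 9 of 22 in A3B KO cells (24.6%) and 7 of 20 in WT cells (31.6%). The number that fell depended on the distance allowed. Within 1 kb of the start it was 12 of 33 in A3B KO cells (36.4%, against 16.8% of all genes) and 6 of 26 in WT cells (23.1%, against 17.6%) at 2 h. At 6 h it was 9 of 40 in A3B KO cells (22.5%, against 14.3%) and 8 of 34 in WT cells (23.5%, against 16.5%). Ranked by pileup in place of fold, 14 of 38 fell at 2 h in A3B KO cells (36.8%, against 14.4% of all genes). In WT cells 14 of 41 fell at 2 h by pileup (34.1%, against 14.9%). By pileup at 6 h, 6 of 47 fell in A3B KO cells (12.8%, against 9.64%) and 9 of 46 in WT cells (19.6%, against 14.1%). The 6 h shares by pileup were thus nearer to those of all genes.

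**Figure D1:**
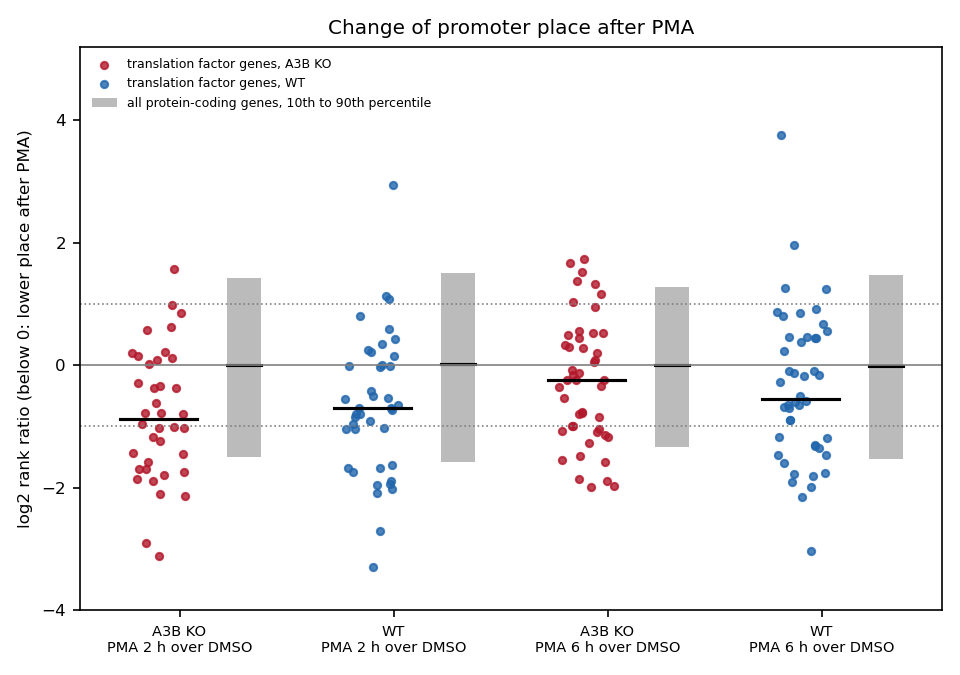
The plot of change after PMA shows the log2 rank ratio of each ranked translation factor gene (points; black line, median) for PMA 2 h and 6 h over DMSO in A3B KO and WT cells, beside the range from the 10th to the 90th percentile of all protein-coding genes (grey). The medians of the members were −0.88 and −0.69 at 2 h and −0.24 and −0.55 at 6 h in A3B KO and WT cells, and those of all genes lay at 0.

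The A3B KO and WT comparisons share no library, so genes that fell in both can be counted. At 2 h, 35 members were ranked in both lines, of which 17 fell in A3B KO cells and 13 in WT cells. In both lines 8 fell, which is 22.9% of the 35 against 9.57% of all 4065 genes ranked in both. The 8 made up 47.1% of the members that fell in A3B KO cells and 61.5% of those in WT cells. Over all genes these shares were 49.5 and 48.0%. The 8 were EEF1D, EEF1G, EIF2A, EIF2B4, EIF3A, EIF3H, EIF3J and EIF4H. At 6 h, 9 of 42 members fell in both lines (21.4%, against 6.65% of all genes): EEF1AKMT1, EEF1D, EEF1G, EIF2A, EIF3B, EIF3H, EIF3J, EIF4H and EIF5. The 9 made up 69.2% of the members that fell in A3B KO cells and 60% of those in WT cells. Over all genes these shares were 37.7 and 32.9%. No member rose in both lines at either time, where 8% (2 h) and 5.7% (6 h) of all genes did.

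The 6 genes that fell in both lines at both times belong to eEF1B (EEF1D and EEF1G), to eIF3 (EIF3H and EIF3J) and to other steps of initiation (EIF2A and EIF4H). EEF1G, whose product anchors the eEF1B complex, had rank 2632 at 2 h and 708 with DMSO in A3B KO cells, a ratio of −1.89, and rank 3911 at 2 h and 398 with DMSO in WT cells, a ratio of −3.30. EIF3H had rank 2484 at 2 h and 330 with DMSO in A3B KO cells (−2.91) and 2946 and 452 in WT cells (−2.70). EIF3J, a loosely bound eIF3 subunit, had ratios of −2.14 and −1.97 at 2 h and 6 h in A3B KO cells and −1.90 and −1.81 in WT cells. For EIF3J the highest promoter window of the PMA 2 h lists was not the one of the other lists. It was centred at −1714 bp from the start in A3B KO cells and at −1036 bp in WT cells, where negative is upstream. In the other 4 lists it was at 258 to 279 bp. Windows of other genes also differed in WT cells. The EEF1G window had a GC content of 49.6% at 2 h and 59.8% with DMSO. The EEF1D window held 14 CpG at 2 h and 5 with DMSO, and the EIF4H window 63 at 6 h and 31 with DMSO. These ratios may therefore compare different stretches. The windows of EEF1D, EIF2A and EIF3H lay upstream of the MANE transcript in every list. The EIF2A gene overlaps the coding gene SERP1, and to which of them its window belongs was not tested. EIF2A had −2.11 and −1.49 in A3B KO cells and −1.74 and −3.04 in WT cells, EIF4H −1.79 and −1.59 and −1.05 and −1.76, and EEF1D, for a further exchange subunit of eEF1B, −1.59 and −1.07 and −2.08 and −1.46. EEF1G and EIF3H had regained part of their place by 6 h in WT cells, where their ratios were −1.31 and −1.35.

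**Figure D2:**
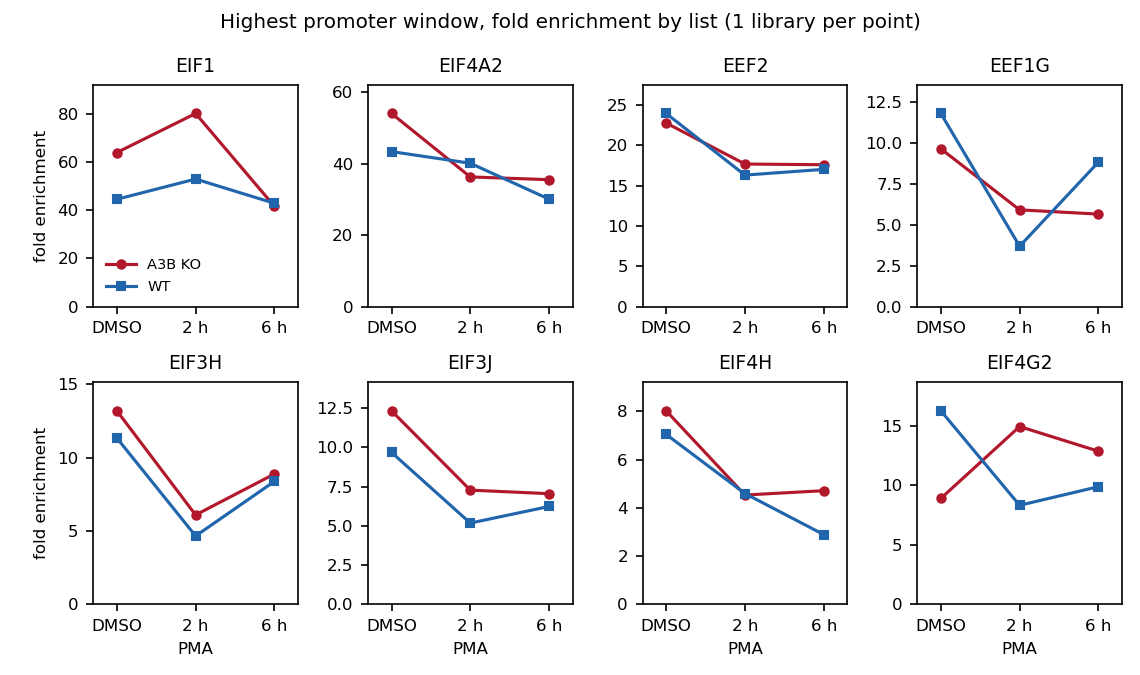
The plot of fold enrichment by list gives the highest promoter window of 8 genes with DMSO, PMA 2 h and PMA 6 h in A3B KO (red) and WT (blue) cells, each point 1 library, with axes from 0. EEF1G, EIF3H, EIF3J and EIF4H were lower at 2 h and at 6 h than with DMSO in both lines, while EIF4G2 moved in opposite directions, with 14.9 at 2 h in A3B KO cells and 8.30 in WT cells.

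By role, the genes of eIF4F, its homologues and its helicase cofactors fell most often at 2 h in A3B KO cells. There 6 of 7 ranked ones fell (median −1.70): EIF4A1, EIF4A2, EIF4B, EIF4E, EIF4E2 and EIF4H, with EIF4G2 as the exception. In WT cells 2 of 7 fell (median −0.65). Of 5 ranked elongation factor genes 3 fell in A3B KO cells (median −1.45) and 2 in WT cells (−0.74), and of the eIF3 genes 4 of 9 fell in A3B KO cells (−0.97) and 5 of 11 in WT cells (−0.80). The difference between the lines was not tested. Of all ranked genes, 17% fell at 2 h in A3B KO cells and 17.7% in WT cells. In WT cells EIF4A2, EEF1B2, EEF2 and EIF4A1 had ratios of 0.58, −0.74, −0.50 and −0.02 at 2 h. In A3B KO cells the same 4 had −1.70, −1.45, −0.79 and −1.23. EIF1 had ratios of 0.19 at 2 h and −1.09 at 6 h in A3B KO cells and 1.126 and 0.68 in WT cells, all within the first 24 places. EEF1AKMT1, which methylates eEF1A, had the largest fall in A3B KO cells at 2 h (−3.11), and a ratio of −0.92 in WT cells. At 6 h in A3B KO cells, EIF4G3, EIF3J, EIF3B and EEF1G fell most (−1.998, −1.97, −1.90 and −1.86), and EIF4G2, EEF1AKMT4-ECE2, EIF2B3 and EIF3G rose most (1.74, 1.68, 1.52 and 1.38). At 6 h in WT cells, EIF2A, EIF3B, EIF4E2 and EIF6, whose product keeps the large ribosomal subunit from joining early, fell most (−3.04, −2.15, −1.997 and −1.91), and EIF3C, EIF4A3, EIF4A1 and EIF3CL rose most (3.76, 1.96, 1.26 and 1.24). The fall of EIF4G3 and the rise of EIF3G turned to 0.47 and −0.13 when the highest window anywhere in the gene was ranked. EIF3C had risen by 2.95 at 2 h in WT cells too, in the duplicated region where copies cannot be told apart.

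Some members lost their promoter window at 2 h. In A3B KO cells 11 of the 49 members with one under DMSO had none at 2 h (22.4%, against 23.2% of all genes), and in WT cells 10 of 51 (19.6%, against 30.2%). In both lines together, 5 of 44 had one in both DMSO lists and in neither PMA 2 h list (11.4%, against 11% of all genes): EEF1AKMT2, EEF1AKMT3, EIF2B5, EIF4EBP1 and EIF5B, for the GTPase that joins the subunits. The share of members that lost a window was thus close to that of other genes or below it.

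The genes that make the rest of the translation machinery were placed beside these. Of 77 cytosolic ribosomal protein genes, 43 of 62 ranked ones fell and 0 rose at 2 h in A3B KO cells (median −1.82), and 38 of 61 fell and 2 rose in WT cells (median −1.23). At 6 h, 22 of 63 fell and 5 rose in A3B KO cells (median −0.53), and 23 of 63 fell and 5 rose in WT cells (−0.42). Of all ranked genes, 17 and 17.7% fell at 2 h in A3B KO and WT cells, and 15.2 and 17.3% at 6 h. A textbook list of 9 TOP translation factors, all of them members, had 6 ranked genes, of which 5 and 3 fell at 2 h in A3B KO and WT cells and 4 and 4 at 6 h, with none rising (medians −1.64, −1.41, −1.10 and −1.25). The presence of the tract in the DNA, which the choice of members did not use, was set beside these changes. Among ranked members, 4 of 8 with the tract at a RefSeq start fell at 2 h in A3B KO cells and 1 of 9 in WT cells. Of the remaining ranked members, 14 of 30 and 13 of 32 fell. These include members that matched no RefSeq promoter, for which the presence of a tract is unknown, among them EEF1D and EIF3H, which fell in both lines. They also include EEF1G, which had the lowest ratio of the textbook list in WT cells at 2 h and no tract at its RefSeq start. The textbook list and the tract thus do not pick the same genes. The difference between members with and without the tract was not tested.

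Of 18 genes of translational control by mTOR, the eIF4E kinases and eIF2 alpha phosphorylation, 2 of 10 ranked ones rose and 1 fell at 2 h in A3B KO cells (median 0.04), and 2 of 7 rose and 1 fell in WT cells (median 0.24). At 6 h, 2 of 12 rose and 1 fell in A3B KO cells (median 0.03), and 1 of 10 rose and 2 fell in WT cells (median −0.08). Of all ranked genes, 16.6% rose and 17% fell at 2 h in A3B KO cells, and 17.2 and 17.7% in WT cells. At 6 h these shares were 14.6 and 15.2% in A3B KO cells and 17 and 17.3% in WT cells. PPP1R15A, a stress-induced regulatory subunit of the phosphatase that acts on eIF2 alpha, had promoter folds of 4.37, 34.8 and 16.3 in A3B KO cells (DMSO, PMA 2 h, PMA 6 h) and 5.30, 15.1 and 11.1 in WT cells. Its ratios were 6.16 at 2 h and 4.74 at 6 h in A3B KO cells and 4.08 and 2.74 in WT cells, so this gene had its lowest fold with DMSO in each line. MKNK2, for a kinase of eIF4E, rose at 2 h by 1.39 in A3B KO cells and by 3.19 in WT cells, with ratios of −0.69 and −0.10 at 6 h. PABPC4, for a cytoplasmic poly(A)-binding protein, fell in all 4 comparisons, with ratios at 2 h and 6 h of −3.06 and −1.20 in A3B KO cells and −1.21 and −1.40 in WT cells. The aminoacyl-tRNA synthetase genes were mixed, with 4 of 12 ranked falling and 3 rising at 2 h in A3B KO cells and 1 of 8 falling and 1 rising in WT cells.

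The comparison of A3B KO with WT cells asks whether these promoters stood at other places in the lists of the line without A3B. Ranks within a list cannot show a change of R-loop level that all promoters share. The ratio is here the log2 of the rank in WT over the rank in A3B KO cells, so that values above 0 stand for a higher place in A3B KO cells. With DMSO, 6 of 44 ranked members rose in A3B KO cells and 7 fell (median −0.05), where 11.3% of all genes rose and 11% fell. At PMA 2 h, 2 of 39 rose and 4 fell (median −0.13), against 11.6 and 11.4% of all genes, and at PMA 6 h 7 of 47 rose and 3 fell (median 0.13), against 12.1 and 11.9%. As a family the translation factor genes therefore stood at nearly the same places in both lines at each time.

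Single members differed between the lines. EIF4B, which stimulates the helicase eIF4A, stood higher in A3B KO cells in all 3 pairs, with ratios of 1.61, 0.56 and 2.57. Its folds were 10.6, 7.12 and 9.18 in A3B KO cells and 6.70, 5.10 and 4.40 in WT cells. The GC content of these windows was 48.2, 56.6 and 50.6% in A3B KO cells and 59.4, 59.2 and 59.0% in WT cells. Their position in the first intron therefore differed between the lines. EIF3M had ratios of 0.13, 1.58 and 1.41. EEF1AKMT1 had 1.84 and 2.24 with DMSO and at 6 h and −0.35 at 2 h. EIF1 had 1.58 with DMSO, with rank 8 in A3B KO cells and 24 in WT cells, and 0.65 and −0.18 after PMA. EIF4EBP3, for a small eIF4E inhibitor, had 1.88 with DMSO and −0.16 and 0.73 after PMA, and EIF4E2 had −0.09, −0.15 and 2.40. None of these genes rose in all 3 pairs. Ranked by pileup, the ratios of EIF1 and EIF4B with DMSO were −0.22 and −0.015, and ranked by the highest window anywhere in the gene, that of EEF1AKMT1 at 6 h was −0.084. EIF4A1 stood lower in A3B KO cells, with −0.14, −1.38 and −2.95, and at 6 h had rank 217 in A3B KO cells and 28 in WT cells. EEF1AKMT4 and the readthrough gene EEF1AKMT4-ECE2, which begin at neighbouring starts, had −1.70 and −2.20 with DMSO. EIF6 had −2.01 with DMSO and −0.29 and 0.46 after PMA. EIF4G2 had −2.17 with DMSO but 1.42 and 1.46 after PMA, and EIF3C had 1.48 with DMSO but −2.57 and −1.78 after PMA, although within 1 kb of the start its ratio at 2 h was 0.36. EIF4ENIF1, for a transporter that binds eIF4E, was the 1 member with a promoter window in all 3 A3B KO lists and in no WT list (1.43% of members, against 0.27% of all genes), with folds of 2.87, 3.88 and 6.04. These windows lay upstream of the MANE transcript and had a GC content of 66, 65 and 48%, so they were not all the same stretch. The RefSeq start of this gene lay 6266 bp inside the GENCODE gene. Windows anywhere in the gene numbered 14, 13 and 17 in A3B KO cells and 13, 10 and 17 in WT cells. No member had a promoter window in all 3 WT lists and in no A3B KO list (0.14% of all genes). Of 723 merged regions 2 were present in all A3B KO lists and no WT list (0.277%, against 0.598% over all genes), and 2 in all WT lists and no A3B KO list (0.277%, against 0.284%).

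**Figure D3:**
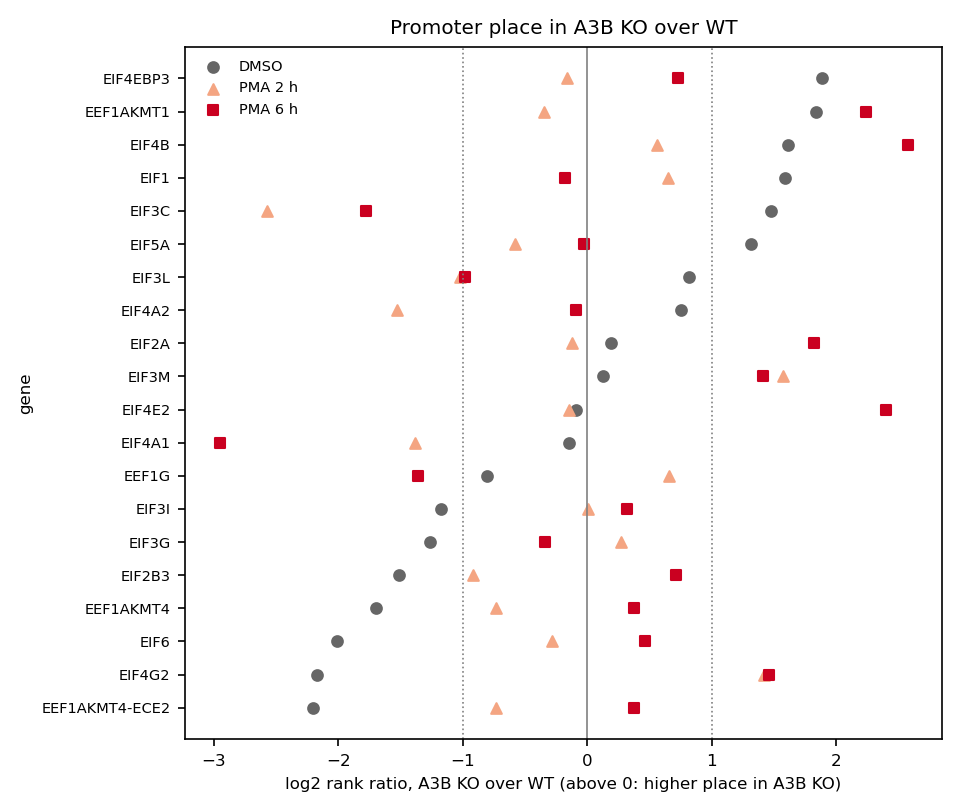
The plot of A3B KO over WT shows, for the 20 members ranked in all 3 pairs with a log2 rank ratio of at least 1 or at most −1 in any of them (rows), the ratio with DMSO (circles), at PMA 2 h (triangles) and at PMA 6 h (squares), where values above 0 mean a higher place in A3B KO cells. No gene lay beyond a dotted line at 1 or −1 on the same side in all 3 pairs, and EIF4G2 and EIF3C lay on opposite sides with DMSO and after PMA.

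The ChIP–seq of A3B-eGFP gave far shorter lists. A window in the gene or within 2 kb of its start stood at 8 members with doxycycline and PMA and at 14 with doxycycline and DMSO, against 3 without doxycycline (11.4, 20.0 and 4.29%), where 7.81, 9.67 and 1.64% of all genes had one. A promoter window stood at 4, 9 and 1 members (5.71, 12.9 and 1.43%), against 3.99, 5.03 and 0.831% of all genes. Most of the windows were in the EIF3C and EIF3CL duplication, where EIF3C had 30, 36 and 36 and EIF3CL 3, 3 and 5 in the same order, so they were as many in cells without doxycycline. Without these genes 9, 26 and 1 windows were left, the last at EIF2AK1. With these genes kept, 25 of 42 windows with doxycycline and PMA (59.52%) overlapped a window of the list without doxycycline. With doxycycline and DMSO 35 of 65 did (53.85%), where the shares over all genes were 17.6 and 20.4%. All of the overlapping windows lay in EIF3C and EIF3CL, which were left out after the data were seen. That none of the 9 and none of the 26 overlapped therefore follows from leaving them out.

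EEF1A1 had the most of the remaining A3B-eGFP windows, 3 with doxycycline and PMA and 9 with doxycycline and DMSO, against 0 without doxycycline. The highest had folds of 5.39 and 9.61 and was centred 11025 and 11033 bp inside the GENCODE gene, away from the DRIP–seq summit described above. EIF4A1 had 5 windows with doxycycline and DMSO, all within 2 kb of the start, with a top fold of 2.61 at 633 bp, and each overlapped a DRIP–seq window of WT cells with DMSO; it had 0 with doxycycline and PMA. EIF1 had 2 and 2 windows with doxycycline, 3151 to 3576 bp from the start and so away from its strongest DRIP–seq window, with top folds of 3.24 with PMA and 3.62 with DMSO. EIF2D and EEF1AKMT1 had 1 window near the start in each list with doxycycline. The genes with windows in 1 list were EEF1AKMT2 and EIF2S2 with PMA and EIF4EBP3 (2 windows), EIF3A, EIF3G, EIF4G2, EIF5, EEF1G and EEF2K with DMSO. Outside the duplication, 3 of 9 windows with PMA (33.3%) and 13 of 26 with DMSO (50.0%) overlapped a DRIP–seq window of WT cells with the same treatment, against 42.7 and 46.7% over all genes. Counting only windows with a −log10 q of at least 5, 4 members had one with PMA (5.71%, against 4.42% of all genes), 7 with DMSO (10%, against 5.21%) and 2 without doxycycline (2.86%, against 0.881%).

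**Figure D4:**
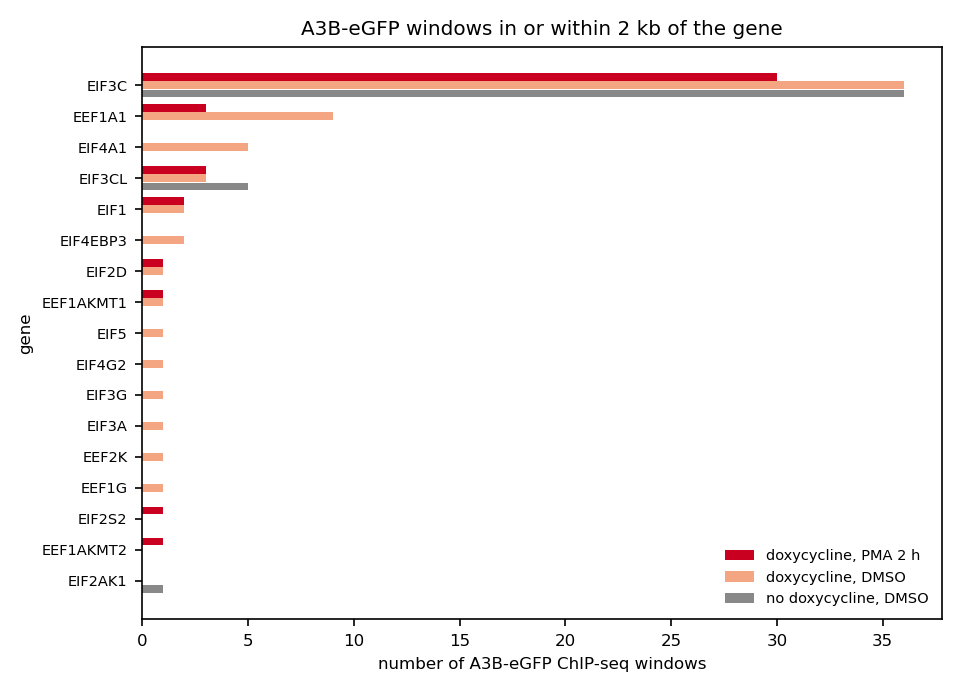
The plot of A3B-eGFP windows gives the number of ChIP–seq windows (bars, from 0) in or within 2 kb of each of 17 members that had any, with doxycycline and PMA 2 h, doxycycline and DMSO, and no doxycycline and DMSO. EIF3C had 30, 36 and 36 windows, and EEF1A1, the next, had 3, 9 and 0.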

How the data were processed

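DRIP–seq and A3B-eGFP ChIP–seq peaks were read from 9 deposited lists, 1 for each immunoprecipitation library; the 9 inputs entered only through the peak calling. The authors trimmed reads with Cutadapt 1.13, aligned them to hg38 with STAR 2.6.1d, filtered them with SAMtools 1.3.1, Picard and bedtools 2.29.2, and called peaks with MACS2 against the input at a q of 0.01; the processing notes give MACS2 2.2.6 and the methods another version. The deposited pileup is a signal, the number of fragments over a summit, and no scaling to library size is stated. The authors deposited the −log10 p and −log10 q of each summit against the input. As a fold, the deposited ratio sets the pileup of the immunoprecipitate at a summit against the background MACS2 expected there from the input. Depth is unknown, and whether starts count from 0 or 1 is not given in the sources used here, which moves a window by 1 bp.

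Genes were taken from GENCODE 44, later than the release the authors used, and promoters from RefSeq GRCh38.p14. A window belonged to a gene when its midpoint lay in it or within 2 kb of its most 5′ start. Entries off chromosomes 1 to 22 and X, 0 to 13 in a list, were left out. Ranks used the highest promoter fold, and a log2 rank ratio of at least 1 in size counted as moved. Members and lists were chosen with earlier results of these data known. The members that could be named were those with a promoter window in all DRIP–seq lists, the 5 highest in each list, the 4 largest rises and falls in each comparison, members with an A3B-eGFP window, the 5 with most windows, those with none, and up to 3 genes of each other translation list in a comparison; genes counted in sets of 5 or fewer, those that moved in both lines and a few set beside members of the same role (such as EIF1AD and EIF4E) were named after their values were seen. Alternatives were a −log10 q of at least 5, equal list lengths, 1 kb, any annotated start, ranks by pileup or −log10 q and leaving out near-identical copies; leaving out EIF3C and EIF3CL and ranking by the highest window in the gene were added after the data were seen. Steps were tested on simulated lists. Python 3.11.15, numpy 2.4.6, pandas 2.3.3 and matplotlib 3.10.9 were used.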

Additional observations from a re-analysis of the deposited data

Results flagged for a closer look

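For 3 members the direction of a change of rank differed between the lines or between treatments, each with 1 library per condition, and the difference itself was not tested. The log2 rank ratio of EIF4G2 for PMA 2 h over DMSO was 1.58 in A3B KO cells and −1.95 in WT cells, and for PMA 6 h over DMSO it was 1.74 in A3B KO cells and −1.78 in WT cells. That of EIF4A1 for PMA 6 h over DMSO was −1.55 in A3B KO cells and 1.26 in WT cells. For A3B KO over WT, EIF4G2 had 1.42 at PMA 2 h and 1.46 at PMA 6 h, against −2.17 with DMSO. EIF3C, which has a near-identical copy, had −2.57 at PMA 2 h and −1.78 at PMA 6 h, against 1.48 with DMSO. The values of EIF4G2 for PMA share their DMSO libraries with the A3B KO over WT comparison, so they are not separate observations.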

How the results depend on the processing

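No paired analysis was possible because each condition had 1 library. The 7 medians of the log2 rank ratio were also taken in 8 alternative settings each. At PMA 2 h over DMSO they ranged from −1.02 to −0.67 in A3B KO cells and from −0.77 to −0.30 in WT cells. At 6 h they ranged from −0.40 to −0.14 and from −0.61 to −0.20. For A3B KO over WT they ranged from −0.05 to 0.21 (DMSO), −0.16 to −0.01 (2 h) and 0.01 to 0.24 (6 h). The DMSO median changed sign. With a −log10 q of at least 5, members with an A3B-eGFP window were 4 with doxycycline and PMA and 7 with doxycycline and DMSO, and with a promoter window 1 and 4. With equal list lengths the counts with doxycycline and PMA were 5 and 2 for any and for promoter windows. Without near-identical copies 5 members had a window with doxycycline and PMA and 1 without doxycycline, where 0 had a promoter window; leaving out only EIF3C and EIF3CL, added after the data were seen, also gave 1 and 0 without doxycycline. Within 1 kb, 27 members had a promoter window in WT cells at PMA 2 h.

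Of single genes, 10 values changed sign. Ranked by pileup, EIF1 and EIF4B for A3B KO over WT with DMSO had −0.22 and −0.015; within 1 kb, EIF3C and EIF3L at PMA 2 h had 0.36 and 0.46. By the highest window anywhere in the gene, EEF1G and EEF1AKMT1 at PMA 6 h for A3B KO over WT had 0.10 and −0.084, EIF4G3 and EIF3G for PMA 6 h over DMSO in A3B KO cells 0.47 and −0.13, and EIF3B for PMA 2 h over DMSO in WT cells 0.86, with 1.1302 from any annotated start. Another 41 values were no longer past the size of 1. Members that fell at PMA 6 h in A3B KO cells were 6 by pileup, 9 within 1 kb and 22 by the highest window in the gene, and in WT cells 9 by pileup and 8 within 1 kb, with 6 within 1 kb at PMA 2 h. The cause was not tested. With 1 library per condition and depth unknown, differences of rank cannot be set against a spread between replicates.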
